A study of Mus musculus with 5 samples.

Results

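Scaffolds are stretches of assembled mouse genome that have not been joined to a finished chromosome, and their CpG methylation was examined in leukemic blasts with intact or deleted Tet2. They were taken by name, as every sequence in the deposited tables that is not an autosome, X, Y or the mitochondrial genome. These were 44 of the 66 sequences, and they held 40171 of 21908008 CpG dyads (0.183%) over 5334105 bp of the assembly GRCm38 (mm10). A dyad is a CpG with the calls of both strands added, and a call is the reading of 1 cytosine in 1 read as methylated or not. Of the 44 scaffolds, 17 are assigned to an autosome without a position (unlocalized), 1 to X, 4 to Y and 22 to no chromosome (unplaced).

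Whole-genome bisulfite sequencing was done on bone marrow blasts of 5 mice with acute myeloid leukemia on the C57BL/6 background. The study reports that female mice were used. All 5 leukemias were Cebpa-/p30, with a deleted Cebpa allele beside an allele that makes only the short p30 isoform of this myeloid transcription factor. Tet2 was intact in 2 mice (Tet2+/+, numbers 23 and 24) and deleted in 3 (Tet2-/-, numbers 5, 7 and 8). By the methods of the study, floxed alleles were deleted with Mx1-Cre, which is inducible in hematopoietic cells, donor marrow had been transplanted into irradiated recipients, and live CD45.2+ donor cells negative for CD3, B220 and Ter119 were sorted. Values are given in the order Tet2+/+ 23 and 24, then Tet2-/- 5, 7 and 8, and p-values measure the spread between these 5 libraries.

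TET2 oxidizes 5-methylcytosine and so starts its removal. Scaffolds collect the sequence that an assembly resolves worst, such as copies of recent segmental duplications, gene families and the tandem satellite repeats next to centromeres, which are packed as constitutive heterochromatin and are normally methylated. A read from such sequence can align equally well to several places, and reads of copies that an assembly lacks can pile up on a copy that it holds.

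Sequences on which the results turn are printed first. They were read from the RefSeq assembly GRCm38.p6, are written 5′ to 3′, and capitals mark CG. The first set holds 1 stretch of each of the 3 tandem repeats that the results describe, because level and change differed between these repeats. Each was picked as the stretch of its scaffold's repeat that best matched the bases after it. Over the whole repeat fewer bases matched: 72.3% on JH584304 (at 234 bp), 47.0% on GL456392 (at 58 bp) and 64.7% on GL456387 (at 21 bp). The unit of 234 bp from JH584304 (chrUn_JH584304:75687-75920, plus strand, 6 CG) was identical to the 234 bases after it. The unit of 117 bp from GL456392 (chrUn_GL456392:575-691, plus strand, 2 CG) matched the next unit at 81.2% of bases. The 84 bp from GL456387 (chrUn_GL456387:13971-14054, plus strand) hold 4 units of 21 bp and 0 CG.
JH584304 unit: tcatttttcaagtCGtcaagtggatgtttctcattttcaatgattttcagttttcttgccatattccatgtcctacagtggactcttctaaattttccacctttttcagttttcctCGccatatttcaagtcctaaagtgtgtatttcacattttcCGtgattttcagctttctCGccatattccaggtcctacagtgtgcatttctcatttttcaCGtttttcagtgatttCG
GL456392 unit: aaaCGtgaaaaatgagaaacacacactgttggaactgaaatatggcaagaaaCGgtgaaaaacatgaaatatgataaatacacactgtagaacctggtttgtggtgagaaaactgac
GL456387 units: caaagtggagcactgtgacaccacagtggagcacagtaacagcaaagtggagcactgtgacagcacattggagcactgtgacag
The second set holds 300 bp around the annotated starts of 2 genes with differing promoter levels, and 300 bp of the single 1 kb tile that passed the test for change. Pisd-ps3 is read from the minus strand (chrUn_JH584304:59540-59839, 14 CG), as is Vamp7 (chrX_GL456233_random:39042-39341, 17 CG). The stretch of GL456359 lies within the lncRNA gene LOC115489316 (chrUn_GL456359:20157-20456, plus strand, 9 CG).
Pisd-ps3 start: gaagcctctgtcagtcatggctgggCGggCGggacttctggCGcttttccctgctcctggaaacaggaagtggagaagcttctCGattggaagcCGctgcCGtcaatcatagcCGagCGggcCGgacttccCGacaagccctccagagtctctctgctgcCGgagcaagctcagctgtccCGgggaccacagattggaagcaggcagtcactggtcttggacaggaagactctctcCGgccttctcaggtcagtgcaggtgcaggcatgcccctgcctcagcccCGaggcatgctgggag
Vamp7 start: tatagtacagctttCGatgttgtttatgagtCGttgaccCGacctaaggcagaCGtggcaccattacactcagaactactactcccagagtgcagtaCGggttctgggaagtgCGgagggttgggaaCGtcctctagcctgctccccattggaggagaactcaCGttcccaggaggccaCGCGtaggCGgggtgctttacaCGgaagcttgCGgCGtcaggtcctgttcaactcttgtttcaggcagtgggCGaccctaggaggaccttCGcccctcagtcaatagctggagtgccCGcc
GL456359 stretch: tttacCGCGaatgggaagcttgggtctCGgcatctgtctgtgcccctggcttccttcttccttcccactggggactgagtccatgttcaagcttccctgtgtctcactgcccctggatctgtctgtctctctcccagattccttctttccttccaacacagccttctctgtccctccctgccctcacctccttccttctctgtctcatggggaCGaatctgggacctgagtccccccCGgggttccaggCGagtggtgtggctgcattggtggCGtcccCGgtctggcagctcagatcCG

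The libraries held 70263 to 114889 calls on scaffolds and 61122068 to 107360283 on autosomes. In 1000 bp of the last Tet2 exon (chromosome 3, 133467191 to 133468190, 17 dyads) there were 44 and 64 calls in the Tet2+/+ libraries and 0 in each Tet2-/- library, which allows up to 3.72% to 6.64% of the coverage of the 500 kb on either side, for counting error only. Autosomes were methylated at 67.3% and 62.3% in Tet2+/+ and at 70.9%, 74.8% and 68.4% in Tet2-/-. The groups did not overlap, and the difference was 6.59 points (64.8% ± 3.54, SD, n = 2, against 71.4% ± 3.20, n = 3). Its two-sided exact permutation p was 0.2, where 10 assignments of the libraries allow no p below 0.1. Mitochondrial DNA read as 0.807% to 0.989% methylated in the 5 libraries.

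Coverage of a scaffold tended to be higher where more of its sequence is unique, with exceptions. Scaffolds received 0.626 and 0.590 times the autosomal calls per dyad in Tet2+/+ and 0.553, 0.474 and 0.583 times in Tet2-/-, and 26.9% to 31.1% of their dyads had any call, against 82.2% to 89.4% of autosomal dyads. After bisulfite conversion in silico, 21% of the 75-mers of scaffolds occurred once in the genome. In 4786 autosomal tiles of 1 kb taken at regular steps this share was 90.3%. Repeat-masked bases made up 56.5% of the scaffolds and 33.5% of the whole autosomes, while CpG density differed less, at 7.66 and 8.51 dyads per kb.

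The 12 scaffolds with under 2% unique 75-mers had a median coverage of 0.00284 times the autosomes (0 to 0.0330). The 6 scaffolds with 2% to 30% had 0.367 (0.0885 to 0.440), the 11 with 30% to 80% had 0.702 (0.520 to 6.98), and the 15 above 80% had 0.797 (0.170 to 2.48). Exceptions were GL456370, with 83.4% unique 75-mers and a coverage of 0.170, and JH584295, with 100% and 0.353. Spearman's rho between coverage and uniqueness was 0.784 over the 44 scaffolds and Pearson's r was 0.298, given as descriptions because the scaffolds share libraries and sequence. GL456219, which carries vomeronasal receptor genes of chromosome 7, had 0.0148% unique 75-mers and 42 to 71 calls over 1001 dyads. The 4 Y scaffolds held 5 to 28 calls together, and chromosome Y itself was covered at 0.00775 to 0.0103 times the autosomes. The study reports female mice, so the coverage of the Y scaffolds does not describe uniqueness. They are among the 12 scaffolds under 2% and enter the median and both correlations.

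**Figure D1:**
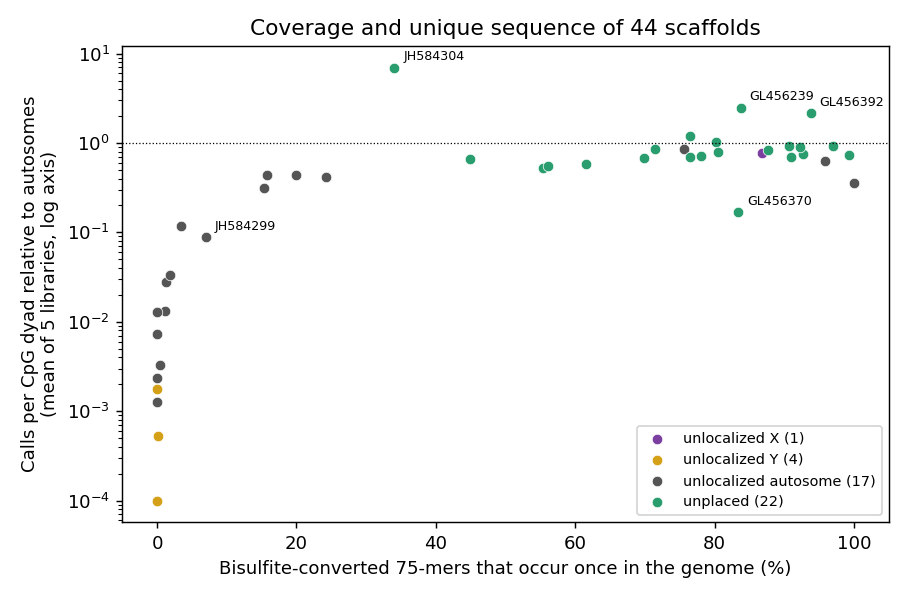
Calls per CpG dyad relative to autosomes (mean of 5 libraries, log axis) against the percentage of bisulfite-converted 75-mers that occur once in the genome, with 1 point per scaffold coloured by assignment and the lowest values drawn at the lower axis edge. Scaffolds under 2% unique lie at or below 0.0330, and JH584304 stands highest at 6.98.

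JH584304, an unplaced scaffold of 114452 bp, stood apart. It was covered 7.93 and 7.44 times as deeply as autosomes in Tet2+/+ and 6.77, 5.46 and 7.31 times in Tet2-/-, although 34.1% of its 75-mers are unique. Another 39.5% recur within the scaffold, and 32.1% occur on chromosomes. Of 977 scaffold dyads with over 5 times the autosomal mean of calls, 898 lay on it. The other 43 scaffolds together held 45.9% of the scaffold calls, so pooled scaffold values are given with and without JH584304. How many copies of this sequence the mice carry was not measured.

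Scaffold coverage was 0.608 ± 0.0252 in Tet2+/+ and 0.537 ± 0.0564 in Tet2-/-, a difference of -0.0707 without overlap (exact permutation p = 0.2). Without JH584304 the difference was -0.0199 (exact permutation p = 0.2). Tet2-/- 7 was the lowest library in both, and without it the first difference was -0.0393. This library also had the lowest mitochondrial coverage, at 4.82 times the autosomes against 7.02 to 9.82 in the other 4 libraries. The part of this library's composition in the difference was not tested. Among 36 scaffolds with at least 20 calls in every library, coverage was lower in Tet2-/- without overlap in 12 and higher in 2. Autosomal windows of 50 kb were lower without overlap in 27.7% and higher in 11.6%. The counts over 36 scaffolds are near these shares, but scaffolds and windows were not matched in depth. Among the 12 scaffolds that reached 1000 calls per library, coverage was lower without overlap in 6 and higher in 0, beside the same window shares. GL456370 was one of the 2 that were higher, at 0.130 and 0.104 against 0.192, 0.232 and 0.194. In bulk DNA, fewer copies of a sequence and poorer recovery of it cannot be told apart.

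Methylation of the scaffolds differed less between the groups than methylation of the autosomes did. This was not particular to scaffolds. Chromosome X also differed less than the autosomes, at 68.6% and 63.8% against 70.5%, 75.0% and 66.6%, with overlapping groups. Over the 44 scaffolds, 70.0% and 66.1% of calls were methylated in Tet2+/+ and 70.4%, 73.1% and 67.3% in Tet2-/-. The groups overlapped, with Tet2-/- 8 below Tet2+/+ 23, and the difference was 2.21 points (68.1% ± 2.74 against 70.3% ± 2.89, exact permutation p = 0.4). Within each library, scaffolds lay 2.71 and 3.83 points above the autosomes in Tet2+/+. In Tet2-/- they lay below the autosomes, at -0.522, -1.70 and -1.13 points. The groups did not overlap on this scale, and the difference of -4.39 points reached the smallest p of the design (3.27 ± 0.797 against -1.12 ± 0.590, exact permutation p = 0.1).

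The order held without JH584304 at a smaller size. The other 43 scaffolds were methylated at 67.3% and 62.6% against 68.6%, 72.3% and 65.8%, a difference of 3.94 points with overlapping groups. Relative to the autosomes they lay at 0.00457 and 0.347 points in Tet2+/+ and at -2.30, -2.51 and -2.60 points in Tet2-/-. The difference was -2.65 points (exact permutation p = 0.1). Relative to the autosomes, the 17 unlocalized autosomal scaffolds differed by -1.91 points, the X scaffold by -4.78 points and the 22 unplaced scaffolds by -4.80 points, or by -2.63 points without JH584304, each without overlap of the groups. Chromosome X itself also lay lower relative to the autosomes in each Tet2-/- library than in the Tet2+/+ libraries. This direction was therefore not particular to the X scaffold.

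Single scaffolds were described by counts. Among the 36 with at least 20 calls in every library, 32 had a higher mean in Tet2-/- and 4 a lower one, with a median change of 4.45 points (-5.43 to 11.9). The groups were apart with Tet2-/- above in 10 and below in 0. Among 47837 autosomal windows of 50 kb the groups were apart with Tet2-/- above in 46.9% and below in 0.504%, and the median change was 6.34 points. After subtraction of each library's autosome level, Tet2-/- lay below without overlap in 14 of the 36 scaffolds and above in 3. For the windows these shares were 16.2% below and 15% above.

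Of the 12 scaffolds with at least 1000 calls in every library, 9 lay lower in Tet2-/- relative to the autosomes without overlap and 0 lay higher. For autosomal windows of 50 kb these shares were 16.2% and 15%. The median over the 12 scaffolds was -3.15 points (-7.00 to 1.24). The smallest changes in level were on JH584304, GL456392, GL456216 and the X scaffold GL456233. JH584304 was methylated at 72.1% and 68.9% against 71.9%, 73.9% and 68.5%, a difference of 0.915 points. GL456392, which is tandem repeat over most of its length, was the most methylated of the 12, at 77.3% and 75.8% against 77.8%, 80.5% and 74.8%. In all 4 scaffolds the groups overlapped.

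GL456210 and GL456211, assigned to chromosome 1, changed about as much as the autosomes. GL456210 was at 69.1% and 65.5% against 73.7%, 80.05% and 71.7%, and GL456211 at 62.9% and 57.2% against 65.2%, 71% and 64.3%. Their differences of 7.83 and 6.78 points were those of scaffolds whose groups did not overlap. GL456212 and GL456221, also of chromosome 1, differed by 5.14 and 5.29 points with overlap. Without Tet2+/+ 24 the differences fell to 3.94 points on GL456211, 2.80 on GL456212 and 1.86 on GL456221. The 5 scaffolds of chromosome 1 together differed from the autosomes by -0.20 points between the groups, those of chromosome 5 by -2.73 and those of chromosome 4 by -6.69. The last value rests mostly on GL456216, which held 2408 of the 3004 calls in Tet2+/+ 23 and differed by -7.00 points relative to the autosomes. Of the other measured scaffolds of chromosome 4, GL456350 differed by -7.20 points without overlap, JH584295 by -12.0 with overlap, and JH584292 by 2.13 points without overlap. These values rest on few calls, 114 to 162 on GL456350, 98 to 276 on JH584295 and 217 to 314 on JH584292. The level of GL456350 itself differed by -0.610 points with overlap, and 98.9% of its 75-mers also occur on chromosomes.

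Of the remaining named scaffolds, JH584299 of chromosome 5 was at 63.7% and 59.7% against 64.5%, 70.1% and 61.6%. The unplaced GL456239 was at 61.4% and 54.3% against 60.7%, 66.3% and 58.7%, with a coverage of 2.29 to 2.60 times the autosomes. GL456383 and GL456389, both rich in tandem repeat, differed by 1.92 and 3.17 points with overlapping groups. Below 1000 calls, GL456359 changed most of the 36 scaffolds, at 50.8% and 48.4% against 58.4%, 67.4% and 58.9%, and GL456387 was at 56.0% and 53.5% against 62.9%, 67.6% and 62.1%.

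**Figure D2:**
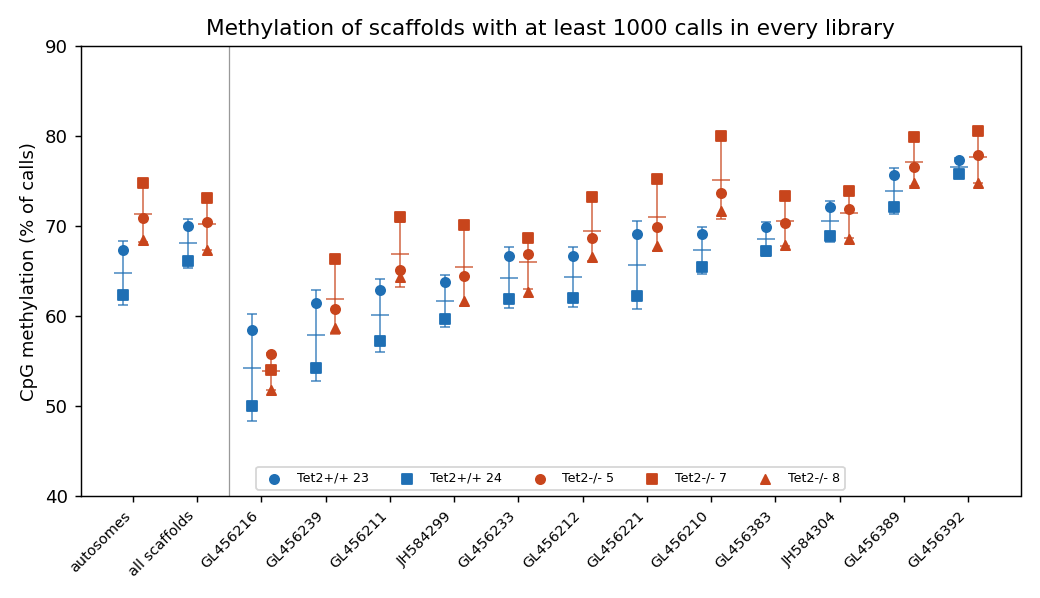
CpG methylation (percentage of calls) of autosomes, all scaffolds and the 12 scaffolds with at least 1000 calls in every library, with 1 point per library and the group mean with SD as bars (2 Tet2+/+ and 3 Tet2-/- libraries). Levels run from 50.05% on GL456216 to 80.5% on GL456392. The groups are apart on the autosomes and, among the 12 scaffolds, on GL456210 and GL456211.

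Tandem repeats were then sought in the sequence itself, because satellite DNA has a chromatin state of its own. A 1 kb tile was called tandem repeat where at least 15% of its words of 8 bases recurred at any of a fixed set of distances. For the long series these lay between 58 and 235 bp and were set from 234 bp, the distance at which JH584304 best matched itself. For the short series they were 21, 42 and 63 bp. Repeats at other distances were not sought and would count as sequence without repeat. The repeat classes were formed after values had been seen, so they are described without a test. Repeats of the 58 to 235 bp series filled 153 of 5295 scaffold tiles (2.89%) and 23 of 4786 sampled autosomal tiles (0.481%). Repeats of 21 bp filled 82 scaffold tiles (1.55%) and 10 autosomal tiles (0.209%). The long series has the unit length of the mouse major satellite, the main repeat of pericentromeric heterochromatin.

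JH584304 carried the long repeat in 48 of 115 tiles, from position 67001 to its end, and 72.3% of bases matched those 234 bp further on. GL456383 carried it in 29 of 36 tiles, GL456389 in 17 of 27, GL456390 in 12 of 16 and GL456392 in 16 of 24, with 46.4% to 47.7% of bases matching at 58, 59 or 117 bp. GL456393 and GL456396 carried it in 8 and 9 tiles. The 21 bp repeat filled 18 of 25 tiles of GL456381, 18 of 23 of GL456387 and 30 of 54 of GL456393, and was also found on GL456239 and GL456394. Scaffolds whose best match lay at none of these distances were not placed in a repeat class.

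The 234 bp repeat of JH584304 was the most methylated class and the one that changed least. Its 1112 dyads were at 80.7% and 80.4% in Tet2+/+ and 80.2%, 82.1% and 79.1% in Tet2-/-, from 16864 to 32055 calls, a difference of -0.0944 points (80.5% ± 0.250 against 80.5% ± 1.51). The 5 libraries lay between 79.1% and 82.1%, while their autosomes spanned 62.3% to 74.8%. Over its 48 tested tiles the median change was -0.0326 points, and Tet2-/- lay above without overlap in 3 and below in 6, beside 33.2% and 2.03% of autosomal tiles. The tested tiles of JH584304 had a median of 308 calls in their shallowest library. Only 261120 of the 1021389 autosomal tiles reached 50 calls in every library, so these shares were not compared at like depth. Coverage of the 234 bp repeat was 6.73 and 5.75 times the autosomes against 5.58, 3.75 and 5.06.

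The long repeat of the other 6 scaffolds was lower, at 75.1% and 72.7% against 75.4%, 77.6% and 73.2%, a difference of 1.54 points over 1419 dyads that fell to 0.314 without Tet2+/+ 24 and to 0.423 without Tet2-/- 7. Its coverage was 1.47 and 1.32 against 1.20, 0.795 and 1.22, and that of the 21 bp repeat 1.43 and 1.35 against 1.27, 1.02 and 1.22. Coverage was lower in Tet2-/- without overlap in all 3 repeat classes, beside 27.7% of autosomal 50 kb windows. These classes share the same libraries and were formed after values were seen. In the classes without repeat the coverage of the groups overlapped. In methylation the 21 bp repeat differed from both long repeats. It held 4.64 dyads per tile against 23.2 in the 234 bp repeat, was the least methylated class, and stood at 54.2% and 51.4% against 61.0%, 65.9% and 57.6%. This was a difference of 8.70 points without overlap. Of its 19 tested tiles Tet2-/- lay above without overlap in 4 (21.1%) and below in 0, beside 33.2% and 2.03% of autosomal tiles, with a median change of 7.99 points. Relative to the autosomes it was 2.10 points, beside -6.69 points in the 234 bp repeat and -5.05 in the other long repeats.

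Sequence without these repeats lay between. On JH584304 it was at 62.3% and 58.1% against 63%, 67.6% and 60.4%, and its coverage of 8.33 to 11.1 times the autosomes was higher than that of the repeat. Over 63 tested tiles the median change was 7.01 points, with Tet2-/- above in 30 (47.6%) and below in 1 (1.59%), beside 33.2% and 2.03% of autosomal tiles. The tiles of this scaffold are deeper than most autosomal tiles, so these shares too were not compared at like depth. The pooled level, which includes the deeply covered start of Pisd-ps3, differed by 3.47 points. On the other 43 scaffolds it was at 66.2% and 61.0% against 67.6%, 71.8% and 64.8%, a difference of 4.47 points and of -2.12 points relative to the autosomes. Over 316 tested tiles of these scaffolds the median change was 3.67 points, with Tet2-/- above in 50 (15.8%) and below in 8 (2.53%). This class holds 36527 of the 40171 scaffold dyads.

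**Figure D3:**
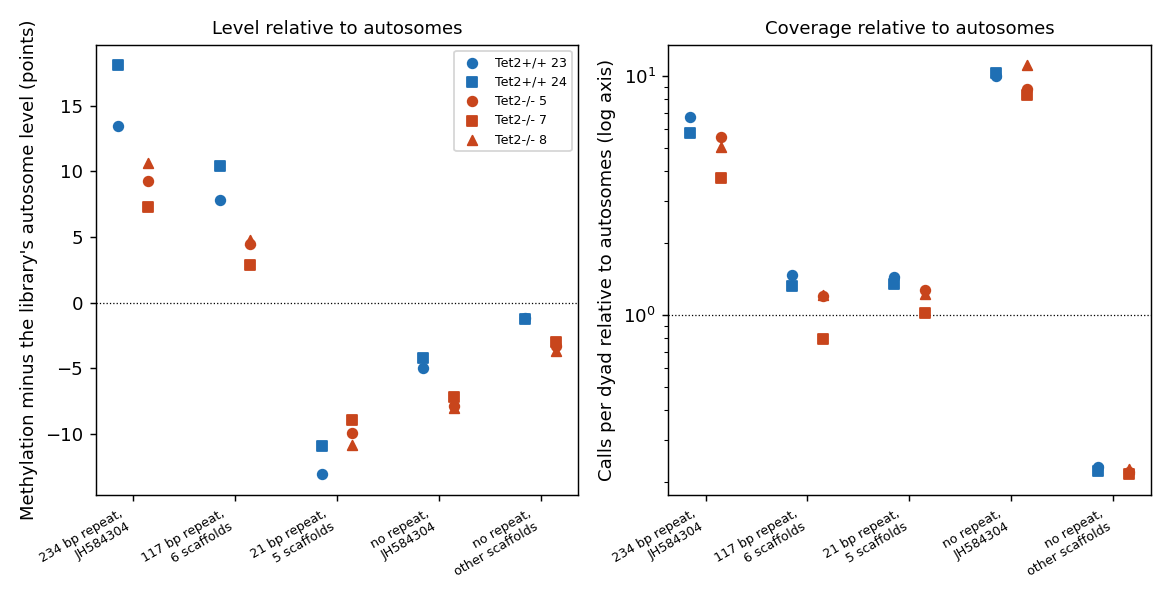
Left, methylation minus the autosome level of the same library (percentage points), and right, calls per dyad relative to autosomes (log axis), for 5 kinds of scaffold sequence with 1 point per library. The 234 bp repeat lies 13.4 and 18.1 points above the autosomes in Tet2+/+ and 7.28 to 10.6 points above in Tet2-/-, and the 21 bp repeat lies below the autosomes in all 5 libraries.

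Scaffold tiles rich in CpG were, where measured, more methylated than such tiles on autosomes, where they are mostly unmethylated CpG islands. Tiles with at least 50 dyads were at 56.0% and 48.7% against 53.6%, 52.9% and 50.3% on scaffolds, and at 10.6% and 8.97% against 12.1%, 11% and 11.6% on autosomes. JH584304 holds none of these tiles, and those of 6 other scaffolds, GL456211, GL456350, GL456370, JH584293, JH584294 and JH584296, had 0 calls in at least 1 library. Tiles with 20 to 49 dyads were at 75.4% and 73.4% against 73.1%, 74.8% and 68.7% on scaffolds, a difference of -2.18 points, and at 55.4% to 67.8% on autosomes. Without JH584304 they were at 75.6% and 73.2% against 76.0%, 80.8% and 72.4%, and the difference turned to 1.99 points. In sparser tiles scaffolds were at 61.7% to 72.9%, or 61.1% to 71.7% without JH584304, and autosomes at 66.5% to 81.0%. The dense tiles themselves differed widely: 4 tiles of GL456216 were at 30.7% to 40.5%, and 2 tiles of GL456354 at 75.4% to 83.9%.

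Change was next tested in each tile of the genome that had 20 or more calls per library, by fitting its methylated and unmethylated counts with edgeR (quasi-likelihood) and adjusting over all these tiles by Benjamini-Hochberg. On scaffolds 512 tiles could be tested, and 1 was higher and 0 lower in Tet2-/- at an adjusted p under 0.05. On autosomes 23800 of 1021389 tiles were higher (2.33%) and 97 lower (0.0095%). An unadjusted edgeR p under 0.05 was reached by 15 scaffold tiles and by 16.6% of autosomal tiles. With limma 0 scaffold tiles passed at an adjusted p under 0.05, and 1.95% of autosomal tiles were higher. The median change was 3.40 points on scaffolds and 6.00 points on autosomes. The groups were apart with Tet2-/- above in 96 scaffold tiles (18.8%) and below in 17 (3.32%), against 33.2% and 2.03% of autosomal tiles. Without JH584304 these shares were 15.7% and 2.49% of 401 tiles, with a median change of 3.61 points.

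The tile that passed lies in LOC115489316, an lncRNA gene of GL456359 (20001 to 21000). It was methylated at 30.6% and 27.0% in Tet2+/+ and at 51.1%, 74.2% and 68.9% in Tet2-/-. The difference was 35.9 points (28.8% ± 2.59 against 64.7% ± 12.1, log2 fold change 2.17, edgeR adjusted p = 0.0444), from 45 to 131 calls over 15 dyads, and 81.6% of its 75-mers were unique. The tile before it differed by 26 points with an adjusted p of 0.0896 by edgeR, and by 14.7 points without Tet2-/- 7 (edgeR adjusted p = 0.320). The call was lost with limma (adjusted p = 0.0634, or 0.323 after subtraction of each library's median) and when any of 4 libraries was left out: without Tet2+/+ 23 the edgeR adjusted p was 0.174, without Tet2+/+ 24 0.594, without Tet2-/- 7 0.120 and without Tet2-/- 8 0.0912. In these 4 fits the difference was 37.7, 34.1, 31.2 and 33.8 points. The call held without Tet2-/- 5 (42.7 points, edgeR adjusted p = 0.0270), by edgeR's likelihood ratio test (adjusted p = 0.0210), at 30 calls (0.0348) and in the 5 kb tile (29.5 points, 0.0309). Over the whole gene the levels were 29.6% and 33.5% against 46.8%, 69.4% and 43.7%.

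The start of Pisd-ps3 on JH584304 went the other way. Pisd-ps3 is a transcribed pseudogene of phosphatidylserine decarboxylase, the mitochondrial enzyme that makes phosphatidylethanolamine, and is annotated on the minus strand from 52674 to 59689. The 2 kb around its start (58689 to 60689, 63 dyads, 3746 to 5178 calls) were methylated at 33.3% and 30.4% in Tet2+/+ and at 18.3%, 26.7% and 11.8% in Tet2-/-. The groups did not overlap, with Tet2-/- lower by -12.9 points (31.9% ± 2.02 against 18.9% ± 7.48, exact permutation p = 0.2).

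This stretch was noticed after its values had been seen. The tile from 59001 to 60000, with 2468 to 3553 calls over 38 dyads, was at 34.5% and 30.3% against 14.2%, 23.4% and 5.82%, a difference of -18.0 points with an edgeR p of 0.00201 and an adjusted p of 0.0670. With at least 30 or 50 calls per library as the filter, which leaves fewer tiles to adjust over, the adjusted p was 0.0442 and 0.0333 by the same edgeR test. With limma it was 0.156, and without 1 library it ranged from 0.0537 to 0.255 by edgeR. The tile of 5 kb from 55001 to 60000 differed by -13.6 points with an edgeR adjusted p of 2.4e-06. It contains the 1 kb tile that was singled out by its values, so it is not separate support. At 5 kb neither limma nor fits without 1 library were run. Of the 75-mers of the 1 kb tile 98.8% were unique, and it was covered 18.9 times as deeply as autosomes.

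Single dyads of the tile went the same way, which is a description and not further support. The tile was singled out by these values, and its dyads share libraries and reads. Of its 38 dyads 37 had at least 20 calls in every library, and in 28 of these the Tet2-/- libraries all lay below the Tet2+/+ libraries and in 0 above, with changes from -35.0 to -4.61 points. Of 20383623 autosomal dyads only 2215 had that depth, so they are an unusually deep set. Of these, 13% lay below without overlap and 12.4% above. The next tile, upstream of the gene, differed by 1.26 points, with 9 of 27 dyads higher and 3 lower without overlap. Over the gene body the level was 52.9% and 50% against 46.7%, 50.2% and 42.7%.

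**Figure D4:**
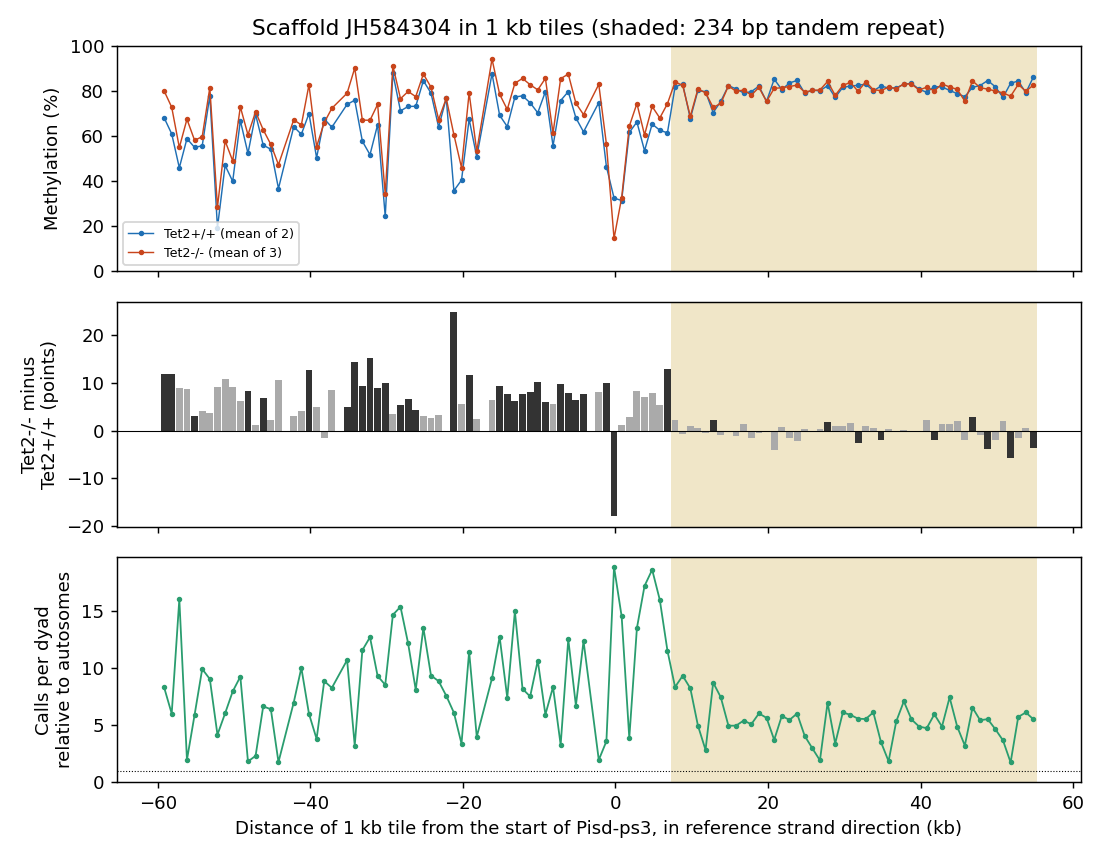
Scaffold JH584304 in 1 kb tiles by distance from the start of Pisd-ps3 (kb), with group mean methylation (%, top), Tet2-/- minus Tet2+/+ (points, middle, dark where the groups do not overlap) and calls per dyad relative to autosomes (bottom), and the 234 bp repeat shaded. The tile at the gene start reaches -18.0 points and 18.9 times the autosomal coverage, while the repeat has a median change of -0.0326 points.

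**Figure D5:**
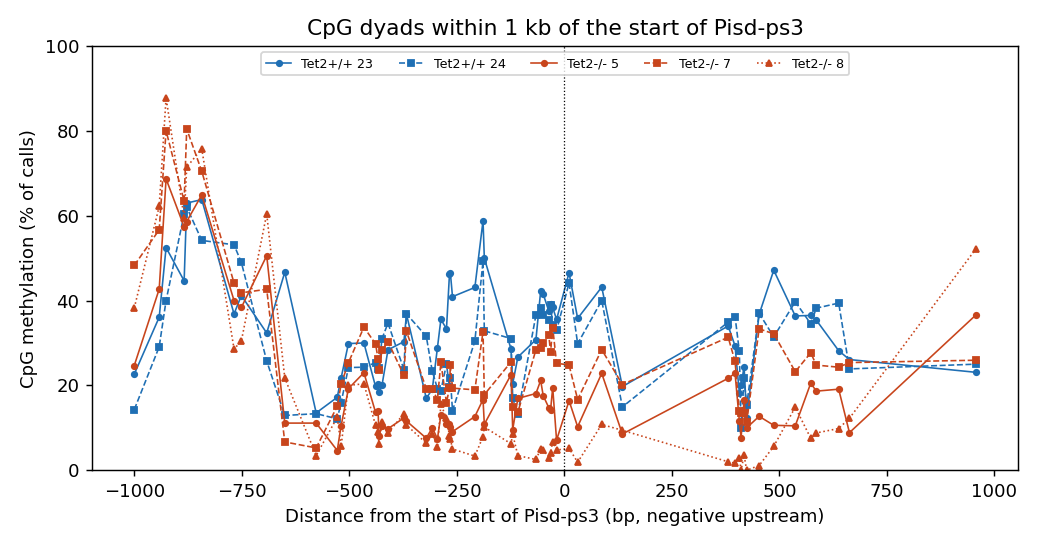
CpG methylation (percentage of calls) of the 61 dyads with at least 20 calls in every library within 1 kb of the start of Pisd-ps3, with 1 line per library and distance in bp, negative upstream. Tet2-/- lies below Tet2+/+ without overlap at 31 dyads and above at 6.

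The annotation places 139 genes on 27 scaffolds, of which 69 are protein coding, 33 pseudogenes, 27 lncRNA genes and 10 transcribed pseudogenes. The bodies of 56 genes had at least 20 calls in every library, with a median change of 5.36 points and Tet2-/- above without overlap in 19 and below in 0. Of 37324 autosomal gene bodies, 45.8% lay above and 1.45% below, with a median change of 5.66 points. Of 35 promoters (1000 bp on either side of the start) with that depth, Tet2-/- lay above in 5 and below in 2, with a median of 2.16 points. Among 41097 autosomal promoters these shares were 35.3% and 2.78%, with a median of 4.2 points. Of the 2 lower scaffold promoters, 1 was Pisd-ps3. The other was that of the lncRNA LOC102637781 on GL456212, at 73.8% and 68.2% against 57.5%, 65% and 65.7%, from 66 to 103 calls. Among the 5 higher were those of LOC105247294 and LOC100861749 on JH584304, by 7.60 and 5.18 points.

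Of the 5 measured gene bodies of JH584304, 2 lay higher in each Tet2-/- library than in both Tet2+/+ libraries, beside 45.8% of autosomal bodies. These 2 are not separate observations, since LOC105247294 (39489 to 47518) lies within LOC100861749 (4567 to 52729), as does LOC100861738. LOC100861749, a long transcribed pseudogene, was at 69.3% and 65.7% against 73.8%, 78.0% and 71.4%, a difference of 6.91 points. LOC105247294, an lncRNA gene, was at 69.8% and 68.4% against 76.7%, 81.6% and 74.1%, a difference of 8.38 points. LOC100861738, a pseudogene of translation elongation factor 2, was already high at 86.1% and 83.8% against 87.4%, 91.3% and 85.5%, and there the groups overlapped.

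The scaffolds of chromosome 1 carry relatives of Sp100 and Sp110, which encode interferon-inducible proteins of nuclear bodies. Between 65.6% and 72.3% of the 75-mers of the scaffolds that carry the genes named here also occur on chromosomes, so their levels are uncertain as values of single copies. The body of LOC102638047, annotated as Sp110-like, was at 68.2% and 63% against 71.1%, 75.2% and 66.1%. Csprs, a component of the Sp100-rs cluster, was at 68.5% and 62.9% against 69.4%, 76.1% and 65.9%, and the Sp110 pseudogene LOC100041034 at 62.7% and 55.4% against 58.8%, 65.9% and 63.2%, all with overlap. LOC101055672 on GL456210, annotated without a description, differed more, at 67% and 59.6% against 73.3%, 77.3% and 79.6%, that is 13.4 points without overlap. Also among the 20 genes with the most calls, LOC100041708, LOC100041057 and LOC102637781 lay higher without overlap, by 8.57, 5.76 and 5.42 points. LOC100041903 and LOC546061 differed by 6.25 and 6.26 points with overlap. Of autosomal bodies 45.8% lay above without overlap.

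Among the protein-coding genes with the most calls are 4 on scaffolds with mostly unique sequence. Dhrsx on GL456216, a short-chain dehydrogenase, had a promoter at 8.82% and 5.66% against 3.96%, 8.59% and 8.51%, and its body was at 51.7% and 42.7% against 49.3%, 47.4% and 43.3%. The X scaffold GL456233 holds Vamp7, a vesicle fusion protein, with a promoter at 8.18% and 24.7% against 11.8%, 17.8% and 16.5%. On the same scaffold Tmlhe, the first enzyme of carnitine synthesis, had a promoter at 32.1% and 22.9% against 20.8%, 42.5% and 28.6%, and Spry3, an antagonist of receptor tyrosine kinase signalling, at 36% and 37.3% against 36.1%, 64.7% and 39.8%. In all 4 promoters the groups overlapped.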

How the data were processed

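Whole-genome bisulfite libraries of 5 leukemias (random-primed, 75 cycles) were processed by the authors. The submitters' processing notes name Trim Galore 0.4.3, FastQC 0.11.7, Bismark 0.19.1 and Bowtie2, and the study's methods state non-directional alignment to mm10, deduplication and methylation extraction. The deposited values are counts of methylated and unmethylated reads per CpG cytosine and strand, with no normalization. Reads aligned to repeats depend on the aligner's treatment of equal matches, which can move coverage and level.

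Here the counts of both strands were summed per dyad, scaffold and 1 kb tile, and the methylation level is methylated calls over all calls. Depth was 3.00 to 5.27 calls per autosomal dyad and 1.75 to 2.86 per scaffold dyad, and intervals from counts cover counting error only. Pooled levels and coverage were compared by two-sided exact permutation. Every tile that reached 20 calls per library was fitted with edgeR 4.0.16 (quasi-likelihood, Benjamini-Hochberg over all tiles), with limma 3.58.1 as alternative, in R 4.3.3. Other steps used Python 3.11.15, numpy 2.4.6, pandas 2.3.3, scipy 1.17.1, numba 0.67.0 and matplotlib 3.10.9.

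Named were scaffolds with at least 1000 calls in every library, tiles past the threshold without overlap (up to 5 in each direction) and, of the annotated genes, up to 20 with the most calls in the shallowest library. These members, lists and rules were chosen with earlier results of these data known, and the repeat classes, the Pisd-ps3 stretch, other named scaffolds and the LOC102637781 promoter were singled out after their values were seen. The sequence at 1 further gene start is not reported here.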

Additional observations from a re-analysis of the deposited data

How the results depend on the processing

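The design of 2 and 3 mice allows no p below 0.1 for a pooled value, scaffold depth was 1.75 to 2.86 calls per dyad, and 8161 of 40171 scaffold dyads were called in all 5 libraries, so that most scaffold sequence was not tested for change. No paired analysis was possible because the groups share no replicate number. The change in scaffold level stayed above 0, from 2.06 to 4.48 points over the alternatives and from 0.267 (without Tet2+/+ 24) to 4.14 (without Tet2+/+ 23) with 1 library left out. Relative to the autosomes it stayed below 0, from -5.21 to -2.65, and from -4.95 to -3.82 with 1 library left out (-2.82 to -2.48 also without JH584304, an alternative chosen after seeing the data). Relative coverage changed by -0.0246 without very deep dyads and by -0.0939 to -0.0393 with 1 library left out, and the median over 1 kb tiles was 0 in every library and so gave 0.

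The count of changed scaffold tiles, 1, became 2 with at least 30 calls, 3 with 5 kb tiles (2 higher and 1 lower), and 0 with limma, limma after median subtraction and limma on thinned calls. With 1 library left out it ranged from 0 to 1 (0 without Tet2+/+ 23, Tet2+/+ 24, Tet2-/- 7 or Tet2-/- 8). GL456216 reversed from -0.407 to 0.658 points over dyads called in all 5 libraries. With 1 library left out, small changes crossed 0: GL456216 ranged from -4.62 to 3.81 points, GL456392 from -0.249 to 2.62, JH584304 from -0.697 to 2.53 and GL456233 from -0.582 to 4.2. So did the bodies of Tmlhe (-0.101 to 3.26), Dhrsx (-5.10 to 3.99), LOC100041034 (-0.0622 to 7.25) and Spry3 (-7.43 to 7.73), and the promoters of Tmlhe (-2.78 to 8.03), Dhrsx (-1.80 to 1.36) and Vamp7 (-9.29 to 7.22). Of the 12 named scaffolds, the change in level moved by over 1.5 times in 11 without Tet2+/+ 24, in 9 without Tet2+/+ 23, in 9 without Tet2-/- 7, in 6 without Tet2-/- 8 and in 1 without Tet2-/- 5. For the repeat classes (an alternative chosen after seeing the data), the change ranged from -0.900 to 0.600 points in the 234 bp repeat of JH584304, 0.314 to 2.76 in the other long repeats, 6.52 to 10.6 in the 21 bp repeat, and, without repeat, 1.35 to 5.58 on JH584304 and 1.91 to 7.03 on the other scaffolds, lowest without Tet2-/- 7 in the first and the third and without Tet2+/+ 24 in the others. The body of LOC115489316 fell to 13.7 points and the promoter of Spry3 to 1.28 without Tet2-/- 7. The cause was not tested.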
